A study of Mus musculus with 8 samples.

Results

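The transcriptomes of splenic natural killer (NK) cells and splenic CD8+ T cells, the cytotoxic lymphocytes of the innate and the adaptive immune system, were compared in mice that lack the Janus kinase TYK2. All genes with a mean normalised read count of at least 10 over the 6 libraries were examined, 14062 of the 54232 gene IDs in the table of counts. The 3 NK cell libraries and the 3 CD8+ T cell libraries came from mice of 8 to 12 weeks that the labels give as C57BL/6 and the methods as C57BL/6N, labelled as *Tyk2* knockout (*Tyk2*-/-) and homeostatic, that is, without culture or stimulation after sorting. Each library held RNA of 3 pooled littermate spleens, from which NK1.1+ NK cells and CD8+ T cells had been purified by flow cytometry, so that *Klrb1c*, the gene of NK1.1, and the CD8 genes *Cd8a* and *Cd8b1* belong to the gates and are no finding. The study set *Tyk2*-/- cells beside wild-type cells and cells with kinase-inactive TYK2, and neither of these is part of the comparison below. The deletion was therefore shared by both groups, and every difference given here is one between NK cell and CD8+ T cell libraries in its presence. The labels give the groups no shared replicate number, so a difference in pools or handling cannot be told apart from one in cell type. Whether the pools of a group came from separate litters is not given in the sources used here, and p-values measure the spread between these libraries only.

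NK cells and CD8+ T cells both kill infected or transformed cells with perforin and granzymes, but they find their targets in different ways. NK cells read germline-encoded receptors, many of them lectin-like receptors encoded side by side in the NK gene complex, which signal through small adaptors with immunoreceptor tyrosine-based activation motifs (ITAM). CD8+ T cells read 1 rearranged T cell receptor (TCR), which signals through the CD3 chains. A resting splenic NK cell already holds granules and carries the T-box factors T-bet and *Eomes*, whereas most resting CD8+ T cells of a young mouse are naive, recirculate through lymph nodes and depend on TCF-1 and LEF-1.

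Total counts ranged from 32848432 to 38573550 in NK cells and from 20957384 to 26144478 in CD8+ T cells, and 17224 to 17373 and 12893 to 14042 genes, respectively, had at least 1 count. The CD8+ T cell libraries differed more among themselves, with a common biological coefficient of variation of 1.4 against 0.847 in NK cells, and 1796 of the genes tested were at 0 in one CD8+ T cell library while another held 100 counts or more, against 469 in NK cells. The 100 most abundant genes took 37.9 to 40.81% of the counts in NK cells and 24.19 to 28.98% in CD8+ T cells. Normalised counts are counts divided by edgeR's TMM library factors and set to a common library size, and a count of 3 was taken as the floor of detection, a limit that reflects counting error alone. The labelled cell types carried their markers. The summed level of *Ncr1*, *Klrb1c*, *Eomes*, *Tyrobp* and *Klrk1* was 15970 to 17830 CPM (counts scaled by library size) in NK cells and 42.2 to 75.9 in CD8+ T cells. The summed level of *Cd8b1*, *Cd8a*, *Cd3e*, *Cd3g*, *Trac* and *Bcl11b* was 166.9 to 248.0 CPM in NK cells and 7430 to 8183 in CD8+ T cells. Reads on *Tyk2* itself were present in each library, with normalised counts of 3760, 3556 and 2883 in NK cells and 128.5, 1127 and 536.1 in CD8+ T cells (log2 fold change 2.51, SE 0.75, adjusted p = 0.0755). These sums over the whole gene do not check the deletion, which would need counts by exon.

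Of the 14062 genes, 1567 (11.1%) were called, that is, had an adjusted p-value below 0.05 and at least a 2-fold difference in edgeR's quasi-likelihood test. Of these, 858 (6.1%) were higher in NK cells and 709 (5.04%) were higher in CD8+ T cells. The counts of called list and family members given below stand beside these shares. The groups did not overlap for 41.6% of all genes tested. Among the genes higher in NK cells, 347 had 0 counts in every CD8+ T cell library, while 58 of those higher in CD8+ T cells had 0 counts in every NK cell library. A gene at 0 in one group could pass the filter on mean count only through the other group, which fixed its direction. Of the called genes, 369 on the NK cell side and 614 on the CD8+ T cell side exceeded 3 counts in each of the 6 libraries, with median folds of 4.23 and 4.54. When only genes with more than 3 counts in all 6 libraries were tested, the split moved from 54.8% of the calls higher in NK cells to 37.1%. With NK cell library 1, 2 or 3 left out, the calls fell to 482, 485 and 475, and DESeq2 called 3537 genes. Of the 475 to 485 calls left in these fits, at least 98.7% were among the 1567.

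**Figure D1:**
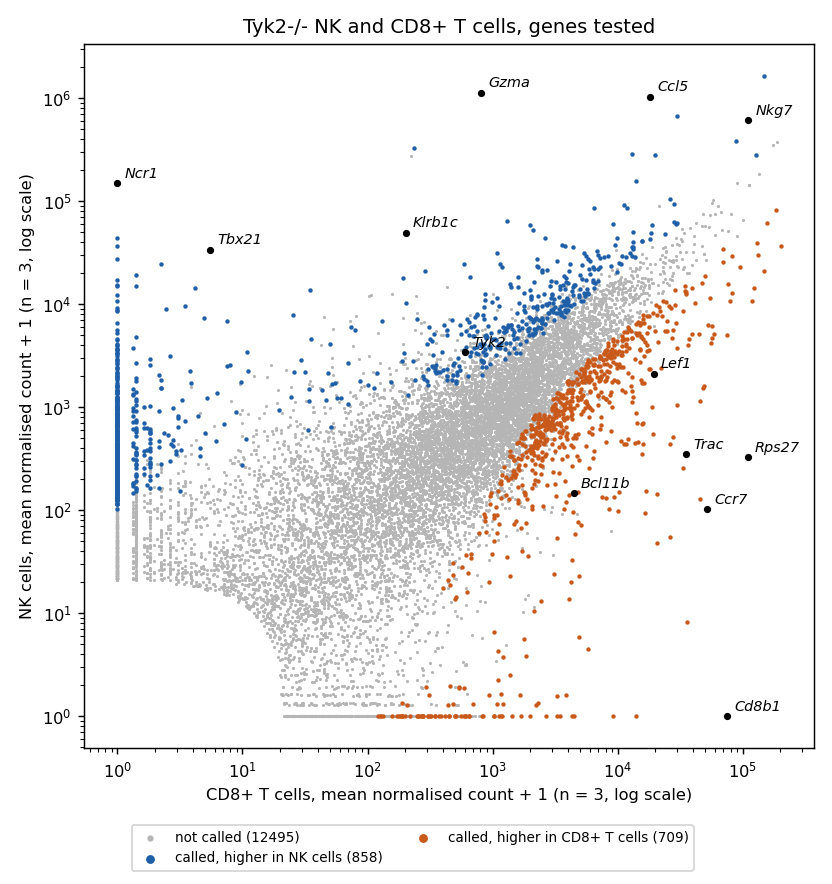
Mean normalised count + 1 of each gene tested in Tyk2-/- CD8+ T cells (horizontal axis, log scale) and Tyk2-/- NK cells (vertical axis, log scale), n = 3 libraries each, with 858 genes called higher in NK cells in blue, 709 called higher in CD8+ T cells in orange and the others in grey. The column of blue points at the left edge holds genes at 0 in every CD8+ T cell library, and the named genes (black) run from Ncr1 at the upper left to Cd8b1 at the lower right.

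Receptors by which NK cells sense their targets came first among the lists by the share called higher in NK cells. Of 35 lectin-like and Ig-type NK receptor genes tested, 19 were called higher in NK cells and none was called higher in CD8+ T cells (median log2 fold change 7.42, against 0.10 over all genes tested), and 11 had 0 counts in every CD8+ T cell library. The 19 include *Klrb1c*, a gene of the sorting gate. The 11 passed the filter on mean count through NK cells alone, which fixed their direction. With those 11 set to their bound against 3 counts, the median was 6.85. Without NK cell library 1, 2 or 3, 13, 12 and 12 were called, and with only genes of at most 5% shared windows 11. *Ncr1*, which encodes the activating receptor NKp46, had 133300, 163500 and 154300 normalised counts in NK cells and 0 in each CD8+ T cell library, so it was at least 44000-fold higher in NK cells (adjusted p = 0.00017). *Klra4*, which encodes the activating Ly49 receptor Ly49D, had 23550, 28870 and 29860 normalised counts and 0 in each CD8+ T cell library. *Klrb1f*, a further member of the NKR-P1 family, had 16470, 14860 and 14420 against 0. *Ncr1*, *Klra4* and *Klrb1f* were thus present in every NK cell library and in no CD8+ T cell library. Ly49 and NKR-P1 genes have near-identical neighbours, and 4.68% of the 50-base windows of *Klra4*, 16.98% of those of *Klrb1c* and none of those of *Klrb1f* also lay in a transcript of another gene, so reads at such places are uncertain.

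Other receptors of the list were shared. *Cd160*, a receptor for HVEM and MHC class I molecules, had 13650, 15020 and 18010 normalised counts in NK cells and 1725, 574 and 1800 in CD8+ T cells, an 11.4-fold difference (log2 fold change 3.51, SE 0.47, adjusted p = 0.0071). *Klrk1*, which encodes NKG2D, had 9489 to 11240 in NK cells and 184.8 to 213.4 in CD8+ T cells (51.1-fold, adjusted p = 0.00017). *Klrd1*, which encodes CD94, the partner of the NKG2 chains, had 14040, 20160 and 19950 in NK cells against 2858, 9784 and 2701. The libraries of *Klrd1* did not overlap, but its log2 fold change of 1.82 (SE 0.54) was not called (adjusted p = 0.0772). All 26 genes of the killer cell lectin-like receptor family that were tested had libraries that did not overlap, with NK cells higher, where 25.5% of all genes tested did. Of the 26, 9 had 0 counts in every CD8+ T cell library and passed the filter on mean count through NK cells alone, which fixed their direction. In this family 15 of the 26 were called, or 8 to 9 without an NK cell library, and *Klrb1c* of the sorting gate is among the 15.

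The signalling chains behind these receptors went the same way. Of 18 ITAM and SLAM adaptor genes tested, 9 were called higher in NK cells and none was called higher in CD8+ T cells (median log2 fold change 6.27, or 5.46 with the 6 genes at 0 in CD8+ T cells set to their bound), and 4 were called without any 1 of the NK cell libraries. *Fcer1g*, which encodes the ITAM chain FcRgamma, had 289400, 336300 and 364000 normalised counts in NK cells and 143.1, 559.2 and 1.94 in CD8+ T cells (1409-fold, log2 fold change 10.46, SE 1.81, adjusted p = 0.0165). *Tyrobp*, which encodes the ITAM chain DAP12, had 262900, 278400 and 286600 in NK cells, but 0, 667.2 and 0 in CD8+ T cells and was not called (adjusted p = 0.054). All reads of *Tyrobp* in CD8+ T cells thus came from library 2. *Syk*, the kinase that binds phosphorylated ITAM, had 1288, 1977 and 1005 normalised counts in NK cells and 0 in each CD8+ T cell library (at least 416.5-fold, adjusted p = 0.0048). *Lat2*, a membrane scaffold used in place of LAT in several non-T lineages, had 14990, 16700 and 19740 against 0 (at least 5016-fold, adjusted p = 0.00029), though 31.9% of its windows were shared with another gene. *Inpp5d*, which encodes the inositol phosphatase SHIP-1, was 10.45-fold higher in NK cells (adjusted p = 0.0018).

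**Figure D2:**
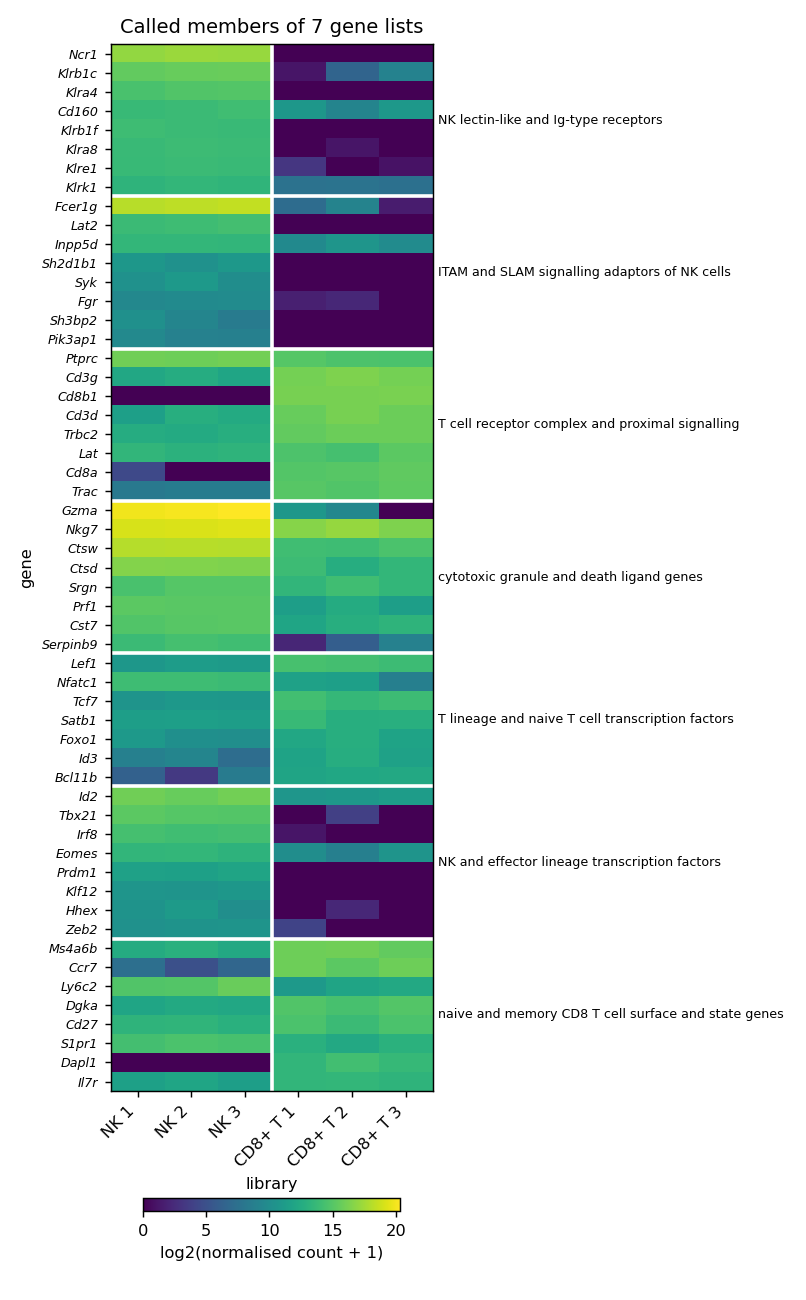
Log2(normalised count + 1) in each of the 6 libraries (columns) of the called members of 7 gene lists (rows, at most 8 for each list, those with the highest mean count). Ncr1, Klra4, Klrb1f, Lat2 and Prdm1 had 0 counts (dark) in each CD8+ T cell library and Cd8b1 and Dapl1 in each NK cell library, whereas Cd160, Inpp5d, Nkg7 and Eomes were shared.

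Of 36 genes of the TCR complex and its proximal signalling, 14 were called higher in CD8+ T cells and 1, *Ptprc*, which encodes the phosphatase CD45, was called higher in NK cells (median log2 fold change -1.12). The 14 include *Cd8b1*, a gene of the sorting gate. Among the 36, 2 had 0 counts in every NK cell library, which fixed their direction. *Trac*, the constant region of the TCR alpha chain, had 35020, 29770 and 41140 normalised counts in CD8+ T cells against 299.7, 369.4 and 376.7 in NK cells (101.3-fold, log2 fold change -6.66, SE 0.24, adjusted p = 0.00017). *Cd3g*, which encodes a chain of CD3, had 69190, 86400 and 69810 in CD8+ T cells against 4748, 6364 and 3899 in NK cells (15.02-fold, adjusted p = 0.00044). *Cd3d* was 11.7-fold higher in CD8+ T cells (adjusted p = 0.0024), and *Trbc2*, the constant region of the TCR beta chain, 8.36-fold higher (adjusted p = 0.00029). NK cells thus held reads of each of these chains at a lower level. *Trbc2* shared 44.0% of its 50-base windows with another gene, and its reads are uncertain. Of *Cd3e*, whose libraries did not overlap either, the log2 fold change was -1.65 (SE 0.60) and it was not called (adjusted p = 0.123).

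Several kinases of the same pathway were at a like level in both cell types. *Lck*, the kinase that phosphorylates the CD3 chains, had 78740, 77790 and 68710 normalised counts in NK cells and 91200, 64560 and 85450 in CD8+ T cells (log2 fold change -0.10, SE 0.17, adjusted p = 0.737). *Zap70*, the kinase recruited to them, had 12020, 9960 and 11880 against 13150, 8857 and 13000 (log2 fold change -0.05, SE 0.21, adjusted p = 0.909). Both overlapped between the cell types. *Cd2*, an adhesion receptor of both lineages, was at a log2 fold change of 0.56 (SE 0.18, adjusted p = 0.0873). Of 150 TCR alpha and beta gene segments tested, 38 were called higher in CD8+ T cells and 2 higher in NK cells, and 84 had 0 counts in every NK cell library. Those 84 passed the filter on mean count through CD8+ T cells alone, which fixed their direction. The 38 became 11 to 12 without an NK cell library, 24 and 23 without CD8+ T cell library 1 or 3, and 16 with only genes of at most 5% shared windows.

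Of 26 granule and death ligand genes tested, 12 were called higher in NK cells and none higher in CD8+ T cells (median log2 fold change 2.37), while 14 were not called. Of the 26, 3 had 0 counts in every CD8+ T cell library and 15 exceeded 3 counts in all 6 libraries. Without any 1 of the NK cell libraries, 7 were called. *Gzma*, which encodes granzyme A, had 1001000, 1075000 and 1337000 normalised counts in NK cells and 1728, 696.6 and 0 in CD8+ T cells (1409-fold, log2 fold change 10.46, SE 2.18, adjusted p = 0.0306). *Nkg7*, a granule membrane protein needed for exocytosis, had 569000, 593500 and 666500 in NK cells and 103300, 140400 and 88610 in CD8+ T cells (5.50-fold, adjusted p = 0.001). *Prf1*, which encodes perforin, had 38280, 36060 and 36520 against 2695, 5937 and 2779 (9.72-fold, adjusted p = 0.0032). *Nkg7* and *Prf1* were thus present in every CD8+ T cell library, while *Gzma* was missing from the third. *Ctsw*, a cathepsin of cytotoxic cells, was 14.2-fold higher in NK cells (adjusted p = 0.00027), and *Srgn*, the proteoglycan that packs granzymes, 2.22-fold higher (adjusted p = 0.034). *Gzmb* had 1296, 1497 and 2211 normalised counts in NK cells and 25.7, 0 and 0 in CD8+ T cells, and was not called (adjusted p = 0.055). *Lamp1*, a general lysosome membrane protein, had a log2 fold change of -0.11 (SE 0.26, adjusted p = 0.823). *Cma1*, a chymase gene outside the list that is best known from mast cells, had 31610, 30680 and 47190 normalised counts in NK cells and 0 in each CD8+ T cell library (at least 10680-fold, adjusted p = 0.0004).

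The 300 bases around the start of 4 genes are shown, since these are called genes of the granule, naive-state and T lineage factor lists described here. Sequences are from RefSeq on GRCm38.p6, from 250 bases before to 50 bases after the start and 5′ to 3′ on the gene's strand, with letters in capitals where they matched 1 of 7 short motifs searched on both strands. *Nkg7* lies at chr7:43436888-43437187 on the plus strand, and its match is to the T-box letters TCACACCT (read here on the other strand). *Gzma* lies at chr13:113100932-113101231 on the minus strand, with matches to the interferon-response letters GAAANNGAA and the RUNX letters TGTGGTTT. *Il7r* lies at chr15:9529827-9530126 on the minus strand, with a RUNX match just after the start. *Lef1* lies at chr3:131110047-131110346 on the plus strand, with a match to the KLF/SP letters CCCGCCCC. The 4 genes shown are a choice, so that each held a match is no finding. Of the called receptor genes, *Ncr1*, *Klrb1c* and *Klra4* held 0 matches in their 300 bases, while *Cd160* held 2, both to the letters CAGCTG.
Nkg7: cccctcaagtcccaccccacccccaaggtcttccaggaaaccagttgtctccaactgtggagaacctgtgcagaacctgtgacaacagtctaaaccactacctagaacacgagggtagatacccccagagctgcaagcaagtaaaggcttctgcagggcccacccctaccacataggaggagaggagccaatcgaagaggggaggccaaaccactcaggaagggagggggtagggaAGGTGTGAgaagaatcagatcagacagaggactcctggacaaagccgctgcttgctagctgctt
Gzma: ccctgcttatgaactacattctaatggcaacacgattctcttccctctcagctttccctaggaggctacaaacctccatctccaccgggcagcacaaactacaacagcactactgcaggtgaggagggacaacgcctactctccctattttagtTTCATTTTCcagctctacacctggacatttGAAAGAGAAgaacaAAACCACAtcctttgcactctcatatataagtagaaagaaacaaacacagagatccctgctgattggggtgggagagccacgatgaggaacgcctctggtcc
Il7r: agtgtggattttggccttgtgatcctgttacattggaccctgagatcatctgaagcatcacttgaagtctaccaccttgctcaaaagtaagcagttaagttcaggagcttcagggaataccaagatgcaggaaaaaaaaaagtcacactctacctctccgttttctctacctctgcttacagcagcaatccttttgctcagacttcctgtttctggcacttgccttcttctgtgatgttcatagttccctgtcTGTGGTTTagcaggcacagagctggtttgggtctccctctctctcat
Lef1: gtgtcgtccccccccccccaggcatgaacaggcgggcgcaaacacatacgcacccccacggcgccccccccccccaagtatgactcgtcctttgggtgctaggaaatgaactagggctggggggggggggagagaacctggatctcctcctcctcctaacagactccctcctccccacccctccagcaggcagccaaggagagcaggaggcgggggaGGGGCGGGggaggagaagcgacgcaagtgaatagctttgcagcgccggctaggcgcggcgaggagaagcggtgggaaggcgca

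Promoters were in the table for 9369 of the genes tested, 657 of those called higher in NK cells and 520 of those called higher in CD8+ T cells. The T-box letters were in 1.37% of the promoters of genes higher in NK cells, in 0.385% of those higher in CD8+ T cells and in 0.961% of all tested. These are 9 and 2 promoters, so the shares rest on few genes. The TCF/LEF letters CTTTGAT were in 1.83%, 2.12% and 2.6%, respectively, and the RUNX letters in 1.83%, 2.12% and 1.26%. The GAAANNGAA letters were in 6.54%, 11.2% and 7.27%, and the KLF/SP letters in 27.4%, 32.7% and 30.8%. The ETS letters CCGGAAGT were in 6.85%, 8.46% and 9.07%, and the E-box letters CAGCTG in 16.4%, 12.1% and 14.5%. A match is a description of letters and not a binding site, and no share was tested.

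Transcription factors followed. Of 24 NK and effector lineage factors tested, 9 were called higher in NK cells and none higher in CD8+ T cells (median log2 fold change 3.14, or 2.85 with genes at 0 at their bound), while 15 were not called. Among the 24, 5 had 0 counts in every CD8+ T cell library, which fixed their direction. *Tbx21*, which encodes T-bet, had 39120, 32460 and 30010 normalised counts in NK cells and 0, 13.5 and 0 in CD8+ T cells (7723-fold, log2 fold change 12.91, SE 1.27, adjusted p = 0.0022). *Eomes*, the second T-box factor, had 10770, 11090 and 9358 in NK cells and 1009, 429.2 and 1503 in CD8+ T cells (10.6-fold, adjusted p = 0.0081). Of the 2 T-box factors, *Eomes* alone was thus found in every CD8+ T cell library. *Id2*, an inhibitor of E proteins that NK cells need, had 61130, 51550 and 64840 against 1680, 1836 and 2437 (29.8-fold, adjusted p = 0.00023). *Prdm1*, which encodes Blimp-1, a factor of terminal effector states, had 3254, 3038 and 3717 in NK cells and 0 in each CD8+ T cell library (at least 976.3-fold, adjusted p = 0.00092). *Zeb2*, which acts with T-bet in late maturation, had 1225, 1423 and 1463 against 15.9, 0 and 0 (256.4-fold, adjusted p = 0.0442). *Runx3*, used by both lineages, had a log2 fold change of 1.17 (SE 0.42) and was not called (adjusted p = 0.115).

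Of 27 T lineage and naive T cell factors tested, 6 were called higher in CD8+ T cells and 1, *Nfatc1*, a calcineurin-dependent factor, was called higher in NK cells (7.58-fold, adjusted p = 0.0452). The other 20 were not called, the median log2 fold change was -0.36, and of 19 members without overlap 8 were higher in NK cells and the other 11 were lower there. Of all genes tested, 25.5% did not overlap with NK cells higher and 16.1% with CD8+ T cells higher. Without NK cell library 1, 2 or 3, the number called on the CD8+ T cell side was 2, 3 and 4. *Lef1* had 21730, 20140 and 16250 normalised counts in CD8+ T cells against 1752, 2427 and 2162 in NK cells (9.17-fold, log2 fold change -3.20, SE 0.22, adjusted p = 0.00066). *Tcf7*, which encodes TCF-1, had 18240, 12300 and 16260 against 1477, 1836 and 1789, the same 9.17-fold difference (adjusted p = 0.00074). Both were well above the floor in every NK cell library. *Bcl11b*, which fixes T lineage identity, had 3763, 4463 and 5090 in CD8+ T cells against 79.8, 9.21 and 344.3 in NK cells (30.7-fold, log2 fold change -4.94, SE 1.22, adjusted p = 0.0492). *Id3*, a relative of *Id2* that is high in naive T cells, was 10.8-fold higher in CD8+ T cells (adjusted p = 0.0187), *Foxo1*, a driver of the homing and survival genes of quiescent T cells, 3.60-fold (adjusted p = 0.0358), and *Satb1*, a chromatin organiser of T cells, 3.39-fold (adjusted p = 0.0169). *Ets1*, needed in both lineages, had a log2 fold change of -0.36 (SE 0.24, adjusted p = 0.361).

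**Figure D3:**
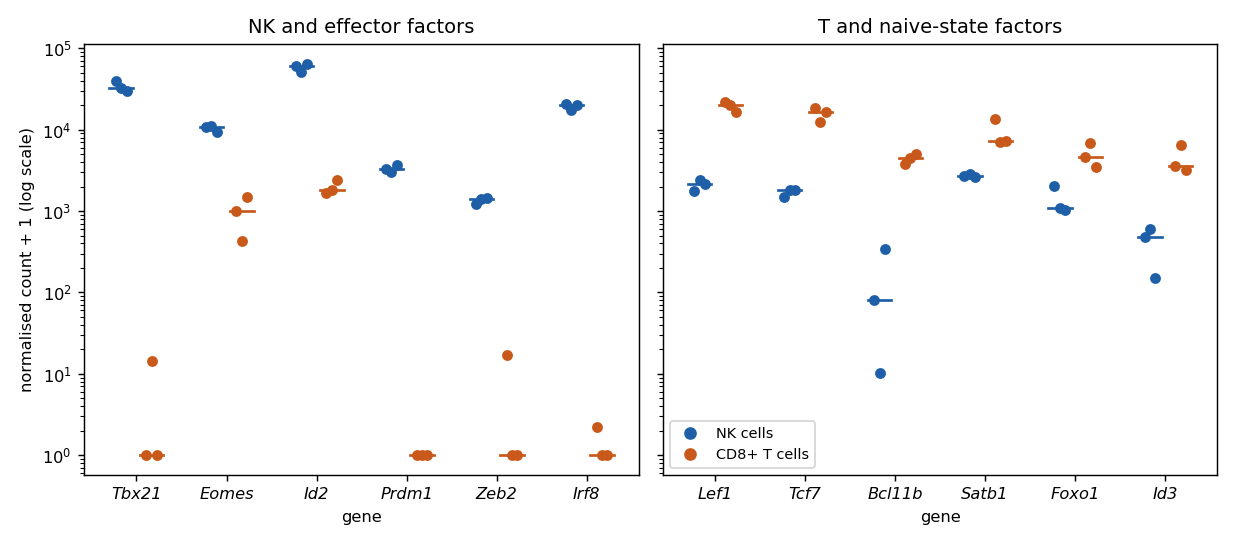
Normalised count + 1 (log scale) of 12 transcription factor genes in each library, with NK cells in blue, CD8+ T cells in orange and a bar at the median of 3. For each gene NK and CD8+ T cells were fully separated, and Prdm1 was at 0 in each CD8+ T cell library.

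The surface and state genes of naive and memory CD8+ T cells had the largest share called higher in CD8+ T cells of the 18 lists of cell functions, with 18 of 32 called higher in CD8+ T cells and 2 higher in NK cells (median log2 fold change -2.76). Among the 32, 3 had 0 counts in every NK cell library, which fixed their direction. Without NK cell library 1, 11 were called on the CD8+ T cell side. *Ccr7*, the receptor that leads cells into lymph nodes, had 59660, 38050 and 57830 normalised counts in CD8+ T cells against 170.3, 31.0 and 101.6 in NK cells (514.1-fold, log2 fold change -9.01, SE 0.77, adjusted p = 0.0012). *Il7r*, the receptor chain by which naive T cells survive, had 10600, 11390 and 9817 against 2983, 4047 and 2704 (3.27-fold, adjusted p = 0.0061). *Dapl1*, a gene of quiescent T cells, had 10520, 18680 and 12500 in CD8+ T cells against 0 in each NK cell library (at least 5130-fold, adjusted p = 0.00073). *Ccr7* was thus low but above the floor in NK cells, *Dapl1* was at 0 and *Il7r* was present in every library. *Ms4a6b*, a tetraspan membrane protein, was 9.23-fold higher in CD8+ T cells (adjusted p = 0.00085), and *Dgka*, the diacylglycerol kinase that damps TCR signals, 5.81-fold (adjusted p = 0.0012). *Ly6c2*, a surface protein of memory cells, was 10.54-fold higher in NK cells (adjusted p = 0.0052).

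**Figure D4:**
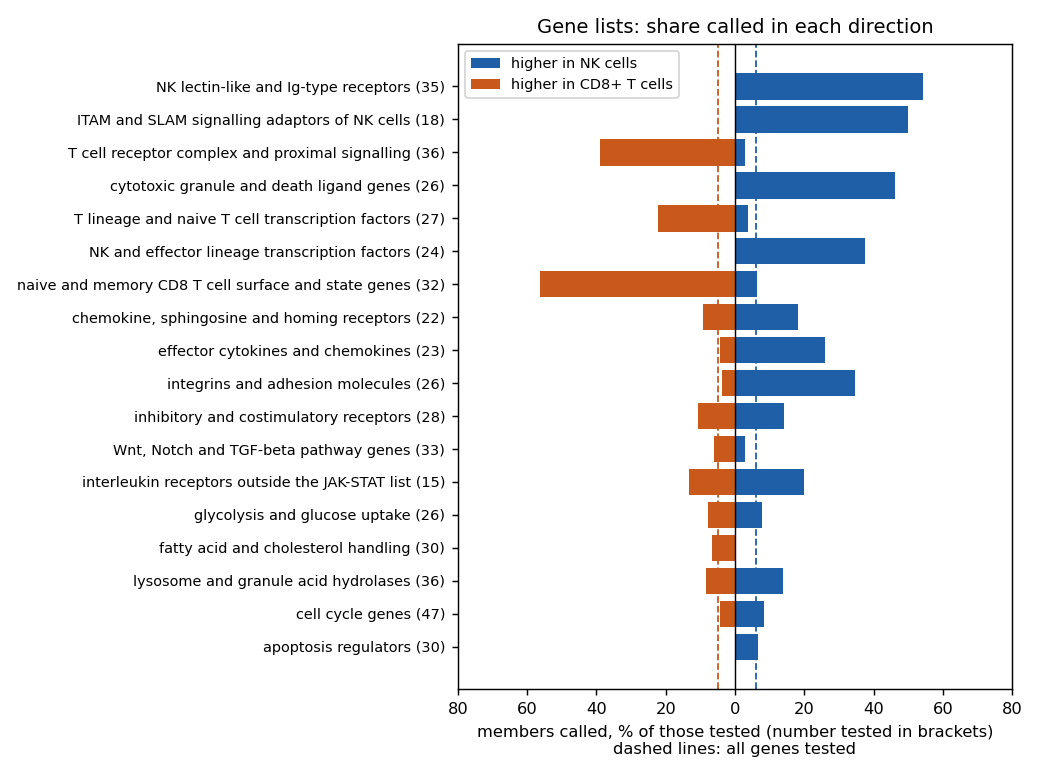
Share of the tested members of 18 lists of cell functions (number tested in brackets) called higher in NK cells (blue, to the right) and in CD8+ T cells (orange, to the left), in percent, with dashed lines at the shares over all genes tested (6.1% and 5.04%). The lists of NK receptors, adaptors and granule genes reached far to the right and those of the TCR complex and of naive-state genes far to the left, while the glycolysis, fatty acid, cell cycle and apoptosis lists stayed near the lines.

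Homing receptors were divided between the cell types. Of 22 chemokine, sphingosine and homing receptors tested, 4 were called higher in NK cells against 2 higher in CD8+ T cells. The called members are 27.3% of those tested, beside 11.1% of all genes tested. Among the 22, 4 had 0 counts in every CD8+ T cell library, which fixed their direction. *S1pr5*, the sphingosine receptor by which NK cells leave the bone marrow and lymph nodes, had 47780, 42020 and 43210 normalised counts in NK cells and 0 in each CD8+ T cell library (at least 12970-fold, adjusted p = 0.00017). *Ccr2*, a receptor for monocyte chemoattractants, had 2952, 3553 and 2370 against 0 (at least 865.7-fold, adjusted p = 0.0012). *Cxcr6* had 14510, 8431 and 4930 normalised counts in CD8+ T cells against 90.5, 61.1 and 247.2 in NK cells (69.8-fold, log2 fold change -6.13, SE 0.77, adjusted p = 0.0055). *S1pr5* and *Ccr2* were thus present in NK cells alone, while *Cxcr6* was low but above the floor in NK cells. *Cxcr3* had a log2 fold change of 2.45 (SE 0.67) and was not called (adjusted p = 0.063).

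Of 23 effector cytokine and chemokine genes tested, 6 were called higher in NK cells and 1, *Ltb*, which encodes lymphotoxin beta, was called higher in CD8+ T cells (9.08-fold, adjusted p = 0.0061). The called members are 30.4% of those tested, beside 11.1% of all genes tested. Among the 23, 3 had 0 counts in every CD8+ T cell library, which fixed their direction. Without NK cell library 1, 2 or 3, the 6 became 3, 2 and 2. *Ccl5*, a chemokine stored by cytotoxic cells, had 941900, 991500 and 1161000 normalised counts in NK cells and 29630, 9881 and 15110 in CD8+ T cells (56.7-fold, log2 fold change 5.82, SE 0.47, adjusted p = 0.001). *Ccl9*, a chemokine gene of the same cluster, had 299.7, 2000 and 276 in NK cells and 0 in each CD8+ T cell library (at least 251.3-fold, adjusted p = 0.0283). On chromosome 11 these 2 genes stood in a run of 4 neighbouring tested genes that were all called higher in NK cells, *Heatr9*, *Ccl5*, *Ccl9* and *E230016K23Rik*. *Ifng*, which encodes interferon gamma, had 1554, 1793 and 1385 in NK cells and 0, 470.9 and 0 in CD8+ T cells and was not called (adjusted p = 0.368). *Ccl3* gave a like pattern, with 4158 to 7296 against 0, 717.4 and 0 (adjusted p = 0.224). CD8+ T cell library 2 was the one that held reads of *Tyrobp*, *Ifng* and *Ccl3*. Among CD8+ T cell libraries *Fcer1g* was also highest there, whereas *Gzma* was highest in library 1 and *Klrb1c* in library 3.

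Among 26 integrins and adhesion molecules tested, 9 were called higher in NK cells, or 3 without any 1 of the NK cell libraries, against 1 higher in CD8+ T cells. With all 6 libraries, the called members are 38.5% of those tested, beside 11.1% of all genes tested. Among the 26, 4 had 0 counts in every CD8+ T cell library, which fixed their direction. *Itgal*, which encodes the alpha chain of LFA-1, had 82870, 81620 and 92570 normalised counts in NK cells and 5964, 5033 and 8395 in CD8+ T cells (13.3-fold, log2 fold change 3.73, SE 0.23, adjusted p = 0.00047). Its beta chain gene *Itgb2* was 2.73-fold higher in NK cells (adjusted p = 0.0017). *Itga2*, which encodes the NK cell marker CD49b, had 2994, 5042 and 2708 against 0 in each CD8+ T cell library (at least 1048-fold, adjusted p = 0.0018). Of 15 interleukin and related receptors tested, 33.3% were called, beside 11.1% of all genes tested. Among all 15, 3 had 0 counts in every CD8+ T cell library and 1 in every NK cell library, which fixed their direction. Of the 15, 3 were called higher in NK cells, 2 were called higher in CD8+ T cells and 10 were not called. Among the latter, *Il2rg*, the gamma chain shared by several interleukin receptors, had a log2 fold change of -0.68 (SE 0.19, adjusted p = 0.064). *Il2rb*, the chain shared by the IL-2 and IL-15 receptors, had 69170, 59340 and 66010 normalised counts in NK cells and 1573, 1507 and 812.8 in CD8+ T cells (50.0-fold, log2 fold change 5.64, SE 0.32, adjusted p = 0.00035). *Il21r* was 5.22-fold higher in CD8+ T cells (adjusted p = 0.0031), and *Fas*, the death receptor, 136.4-fold higher, with 3744, 2824 and 2777 normalised counts against 32.1, 22.6 and 13.5 (adjusted p = 0.00078). *Kit*, the stem cell factor receptor, had 968.2, 965 and 2331 in NK cells and 0 in each CD8+ T cell library (at least 415.9-fold, adjusted p = 0.0072).

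Lists of general cell functions followed. Of 26 glycolysis genes tested, 2 were called in each direction. Of 30 genes of fatty acid and cholesterol handling, 2 were called higher in CD8+ T cells. Of 36 lysosome genes, 5 were called higher in NK cells against 3 higher in CD8+ T cells. Of 47 cell cycle genes, 4 and 2 were called, respectively, and of 30 apoptosis regulators 2 were called higher in NK cells. Together these are 15.4%, 6.67%, 22.2%, 12.8% and 6.67% of the lists' members, beside 11.1% of all genes tested. *Ldha*, which encodes lactate dehydrogenase A, had 33830, 32680 and 29180 normalised counts in NK cells and 35840, 33110 and 26220 in CD8+ T cells (log2 fold change 0.01, SE 0.17, adjusted p = 0.984). *Pdk1*, the kinase that closes entry to the citric acid cycle, was 16.0-fold higher in CD8+ T cells (adjusted p = 0.007). Of the D-type cyclins and their kinases, *Ccnd3* was 3.03-fold higher in NK cells (adjusted p = 0.0029) and *Cdk6* 5.48-fold higher in CD8+ T cells (adjusted p = 0.0024). *Mki67*, the marker of dividing cells, had 278.3, 758.1 and 223 in NK cells and at most 3 counts in each CD8+ T cell library (adjusted p = 0.032). *Kif23*, a kinesin of cell division on the same list, was higher in CD8+ T cells, with 1910, 2196 and 1675 normalised counts against 0.973, 83.8 and 19.8 in NK cells (55.0-fold, adjusted p = 0.0475). Of 28 inhibitory and costimulatory receptors, 4 were called higher in NK cells and 3 in the other direction, beside 6.1% and 5.04% of all genes tested. Of 33 Wnt, Notch and TGF-beta genes, 1 and 2 were called, respectively, or 9.09%, which is below the 11.1% of all genes tested.

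Genes outside all lists and families were ranked by p among those without overlap. Higher in NK cells were *Lgals1*, which encodes the lectin galectin-1, with 152700, 166100 and 150500 normalised counts against 13050, 16300 and 12830 (11.1-fold, log2 fold change 3.48, SE 0.16, adjusted p = 0.00017), and *Arl4d*, a small GTPase of the ARF family, with 22410 to 26850 against 2, 1 and 0 raw counts (ratio 20040, counting interval 6859 to 97190). *Actb*, which encodes beta actin, had 1840000, 1306000 and 1796000 normalised counts in NK cells and 148500, 134600 and 159700 in CD8+ T cells (11.2-fold, adjusted p = 0.00025). At 0 in each CD8+ T cell library were *Dcxr*, a carbonyl reductase (at least 4418-fold), *Scimp*, a membrane adaptor (at least 3564-fold), *Adamts14*, a secreted protease (at least 3161-fold), and *Plek*, which encodes the PKC substrate pleckstrin (at least 1552-fold). From the annexin and S100 families, *Anxa2* and *S100a6*, both calcium-binding proteins, were 16.7-fold and 73.6-fold higher in NK cells (adjusted p = 0.00025 and 0.0026). Outside lists and families again, *Rgcc*, a regulator of the cell cycle, had 36090, 36770 and 27060 normalised counts in CD8+ T cells against 238.4, 345.9 and 190.6 in NK cells (128.9-fold, log2 fold change -7.01, SE 0.34, adjusted p = 0.00025). *Tubb5*, a beta tubulin, was 11.01-fold higher in CD8+ T cells (adjusted p = 0.00058), and *Nras*, a RAS GTPase, 9.44-fold (adjusted p = 0.00074).

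Many of the other leading genes on the side of CD8+ T cells were housekeeping genes with near-identical copies in the genome. *Ftl1*, which encodes ferritin light chain, had 17300, 18180 and 15420 normalised counts in CD8+ T cells against 169.3, 179.3 and 103.4 in NK cells (112.5-fold, log2 fold change -6.81, SE 0.32, adjusted p = 0.00023), and 58.4% of its 50-base windows were shared with another gene. *Ppia*, which encodes cyclophilin A, was 30.8-fold higher (adjusted p = 0.00025) and *Tpt1*, a translation-linked protein, 20.2-fold (adjusted p = 0.00073), with 17.3% and 18.7% shared. Of the 76 coding genes of cytosolic ribosomal proteins tested, 56 were called higher in CD8+ T cells and none in NK cells (median log2 fold change -2.95), and the values ran from -8.93 for *Rps6* to 0.63 for *Rpl8*. *Rps27* had 72940, 161400 and 95290 normalised counts in CD8+ T cells against 290.9, 301.5 and 390.2 in NK cells (335.3-fold, adjusted p = 0.00026). Per length, these genes ran from 0.70 to 8153 RPKM (counts scaled by library size and exon length) in CD8+ T cells and from 0.045 to 2235 in NK cells, with medians of 737.0 and 65.6. Of the 5 such genes with at most 5% of windows shared the median log2 fold change was -1.02, and 2 were called, against -3.12 and 54 called for the other 71.

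Calls over all genes also varied with shared sequence. Of 5014 genes with no shared window, 7.74% were called higher in NK cells against 3.81% higher in CD8+ T cells. Of 1310 genes with above 20 to 50% of windows shared, 3.89% and 8.02% were called, respectively, and the median log2 fold change went from 0.26 to -0.07. In the 747 genes with above 50% shared, both shares were lower, at 2.54% and 4.28%, and the median was -0.4. Reads that aligned to several places were not counted in these files, and the part of shared sequence in the results was not tested. When only genes with at most 5% shared windows were tested, 617 genes were higher in NK cells against 398 higher in CD8+ T cells, a share of 60.8% higher in NK cells. Of the genes named above as higher in CD8+ T cells, *Trac*, *Cd3g*, *Ccr7*, *Tcf7*, *Rgcc*, *Fas* and *Dapl1* had no shared window. The mitochondrial genome took 1.47 to 1.6% of an NK cell library and 2.45 to 4.65% of a CD8+ T cell library, and *mt-Nd1* and *mt-Cytb*, which encode subunits of complexes I and III, were 5.56-fold and 7.13-fold higher in CD8+ T cells (adjusted p = 0.0031 and 0.0012).

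**Figure D5:**
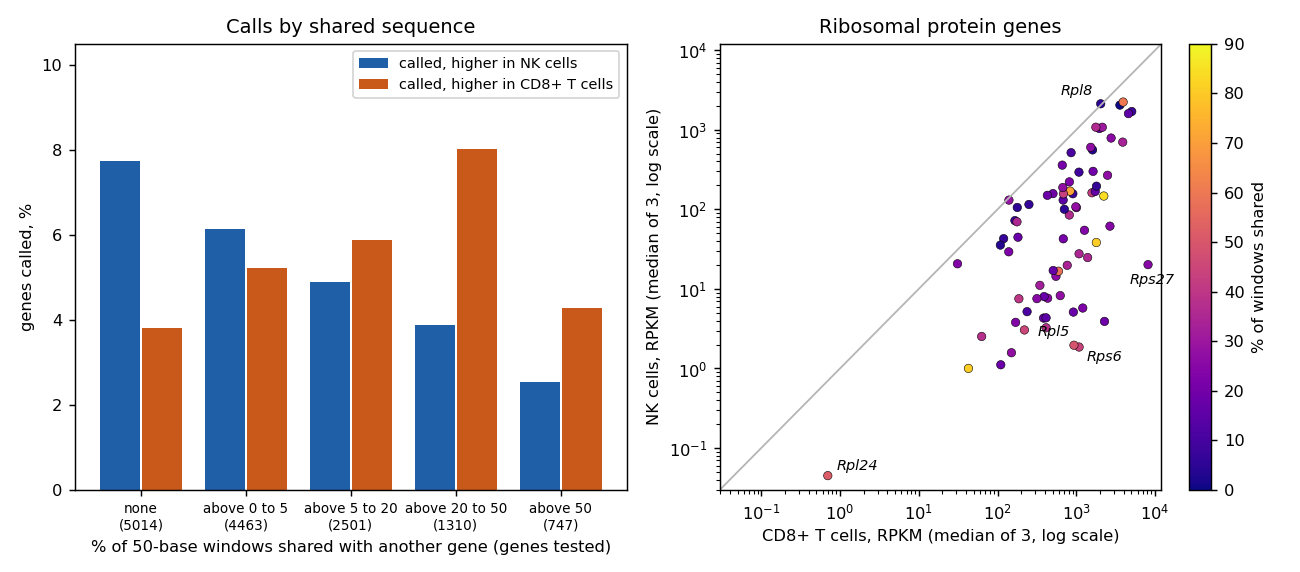
Left, percent of the genes tested that were called higher in NK cells (blue) and in CD8+ T cells (orange), by the percent of a gene's 50-base windows found in a transcript of another gene (number of genes in brackets). Right, RPKM of 76 coding ribosomal protein genes in CD8+ T cells and NK cells (medians of 3, log scales, grey line at equality, colour for the percent of windows shared), where Rpl8 lies on the line and Rps27 and Rps6 far below it.

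In bulk RNA, fewer cells of a type and less RNA per cell cannot be told apart. The summed level of 13 B cell markers was 389.5 to 474.4 CPM in NK cells and 1716 to 2638 in CD8+ T cells, most of it from *Ighm*, the IgM heavy chain, with 66450, 44660 and 53550 normalised counts in CD8+ T cells against 12020, 11620 and 10960 in NK cells (4.76-fold, adjusted p = 0.0011). *Cd22*, an inhibitory receptor of B cells and the other called marker of the list, was higher in NK cells, with 335.7, 304.9 and 239.1 normalised counts against 1, 1 and 0 raw counts in CD8+ T cells (ratio 359.1, counting interval 99.4 to 2965, adjusted p = 0.0239). The antigen-presentation gene *H2-Ab1* had 13890, 228.1 and 7261 normalised counts in CD8+ T cells against 850.5 to 1470 in NK cells. The part of B cells in the calls was not tested, and without CD8+ T cell library 1 the number of genes called higher in CD8+ T cells was 663. The summed level of 16 macrophage, monocyte and neutrophil markers was 10.3 to 38.8 CPM in NK cells and at most 4.92 in CD8+ T cells, with 8 of the 16 at 0 in all 6 libraries. That of 11 dendritic cell markers was 48.9 to 93.3 and 26.6 to 801, that of 10 erythroid and platelet markers 2.63 to 8.14 and 0.254 to 18.5. That of 9 markers of CD4 T cells, regulatory T cells and unconventional T cells was 133.6 to 157.6 in NK cells and at most 11.6 in CD8+ T cells, of which *Trdc*, the constant region of the TCR delta chain, was called, with raw counts of 1350, 3027 and 2619 in NK cells and 0, 2 and 1 in CD8+ T cells (adjusted p = 0.002). Of 8 markers of type 1 innate lymphoid cells, the neighbours of NK cells, *Tmem176b* and *Ckb* were called higher in NK cells and *Il7r*, *Inpp4b* and *Cxcr6* higher in CD8+ T cells.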

How the data were processed

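Bulk RNA-seq was measured in 3 NK cell and 3 CD8+ T cell libraries from Tyk2-/- mice, each from 500 pg of RNA amplified by Smart-seq2 and read as 50 bp single ends. The authors deposited raw counts per gene, and their processing notes name Trimmomatic 0.32, STAR 2.7.1 and the mouse build GRCm38 (mm10). Per the file headers, columns carry no replicate number of the labels, so libraries were numbered by column, and 98 columns of other samples were not used. Genes with a mean TMM-normalised count of at least 10 were tested with edgeR 4.0.16 (quasi-likelihood, robust) in R 4.3.3. Adjusted p-values are Benjamini-Hochberg values over all 14062 genes, and a call needs an adjusted p below 0.05 and a 2-fold difference. SE is the log2 fold change divided by the root of F. Folds against a group at 0 are bounds against 3 counts per library, and ratios with 1 to 3 counts in a group carry a 95% counting interval. The share of each gene's 50-base windows found in a transcript of another gene was computed from GRCm38 transcripts. Marker sums are CPM with TMM factors, and RPKM uses exon length.

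The fit was tested on simulated data with 1 dispersion per gene, estimated over both groups together. There edgeR recovered 37 of 100 genes changed 16-fold and 11 of 100 changed 4-fold, with 2 false calls among 13862 genes. Both groups were simulated with the same spread, so the wider spread of the CD8+ T cell libraries was not part of it. DESeq2 1.42.0 recovered 63 and 28, with 202 false calls. Alternatives were other normalisations and filters, DESeq2, thinned NK cell libraries, leaving out each library, and genes with little shared sequence.

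Members and lists were chosen with earlier results of these data known. Named genes were Tyk2 and the markers, up to 5 called and 2 uncalled members of each list by mean count, the 15 smallest p in each direction outside lists and families, the 2 most abundant called members of each family, and the 5 most abundant genes per length in each cell type. Cd8a, Cd3e, Zap70, Klrk1, Prf1, Gzmb, Zeb2, Bcl11b, Id3, Dapl1, Ifng, Itga2, Rps6, Rpl8, Heatr9 and E230016K23Rik fall outside this rule and were chosen after their values were seen. Some genes are not reported here.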

Additional observations from a re-analysis of the deposited data

How the results depend on the processing

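Against 1567 calls, 858 on the NK cell side and 709 on the CD8+ T cell side, DESeq2 called 3537, split into 2027 and 1510. Testing only genes above 3 counts in all 6 libraries gave 566 calls on the NK cell side against 958 on the other, and testing only genes with at most 5% shared windows, an alternative chosen after seeing the data, gave 1015 calls, of which 398 were on the CD8+ T cell side. Leaving out 1 library at a time gave 475 to 1876 calls, of which 235 to 1170 were on the NK cell side and 240 to 724 on the CD8+ T cell side, and the 3 lowest totals came without an NK cell library. The cause was not tested. Of 212 genes chosen by the naming rule, 54 to 55 lost their call without an NK cell library and 11 to 14 without a CD8+ T cell library, and none changed direction under these settings. Of 96 counts of called list and family members, 49 fell by more than 1.5 times without any 1 of the NK cell libraries, and 27 with at most 5% shared windows. Without any 1 of the NK cell libraries, *Gzma*, *Fcer1g*, *Klrb1c*, *Foxo1*, *Satb1*, *Nfatc1*, *Srgn*, *Mki67*, *Ccl9*, *Ckb* and *Tmem176b* were no longer called, and *Gzma* was also lost without CD8+ T cell library 1 or 2. No paired analysis was possible because the labels give the NK cell and CD8+ T cell samples no shared replicate numbers and the columns carry none.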
